A study of Rattus norvegicus with 2 samples.

Results

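The transcript models described here are those that overlap an exon of a known gene on the same strand and fall in none of the more specific classes of overlap. They were chosen as the transcript lines of the deposited annotation that carry class code o, on every sequence, and they numbered 465 of 43391 transcripts (1.07%) in 434 of 16678 genes. The annotation was made from RNA-seq of femurs of female wild-type Wistar rats. The OVX group had a bilateral ovariectomy, which removes the ovaries and is used as a model of postmenopausal bone loss, and the SHAM group had a sham operation. The labels cover 1 OVX and 1 SHAM sample and give 16 weeks for both, without saying from when, and they also carry the word Old for OVX and Young for SHAM. The study's methods describe more rats and another time. The files hold positions only, with no count, coverage or expression value. Depth is therefore unknown, and OVX could not be compared with SHAM.

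A class code says how an assembled transcript relates to a reference transcript. A model with the full intron chain of the reference carries =, a contained fragment c, a model that shares some splice junctions and adds a new one j, and a model between genes u. Code o is left for a model that lies on a reference exon, in the same direction, without a matching junction. In mammalian genes such models can be an alternative first exon with its own promoter, an extension past the annotated 3' end, or a fragment of an incompletely covered transcript. These possibilities are not told apart by the code. Bone and its marrow hold many cell types, and in bulk tissue a model cannot be assigned to one of them. Of 12 genes of osteoblasts and osteocytes, the cells that form and maintain bone, 11 were assembled, as were 7 of 12 of osteoclasts, 6 of 12 of marrow and 5 of 12 of skeletal muscle. An assembled gene has no level here, so these counts do not by themselves mark the tissue as bone.

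Some models placed exons upstream of the assembled reference chain, and the sequences just before the annotated start of 3 such genes are shown to give the context of that start. Whether the upstream exons are first exons of a full transcript is not known from the files. They were taken from RefSeq on build GRCr8, 250 bases before the gene start, because no genome of the files' build was used here. The new exons therefore cannot be placed in them, and whether the RefSeq start is also the start of the assembled chain is not known. Capitals mark 3 motifs on either strand, the TATA box letters TATAAA, the GC box letters GGGCGG and the letters CCAAT of the CAAT box.
Gna13 (chr10:94837206-94837455, plus strand): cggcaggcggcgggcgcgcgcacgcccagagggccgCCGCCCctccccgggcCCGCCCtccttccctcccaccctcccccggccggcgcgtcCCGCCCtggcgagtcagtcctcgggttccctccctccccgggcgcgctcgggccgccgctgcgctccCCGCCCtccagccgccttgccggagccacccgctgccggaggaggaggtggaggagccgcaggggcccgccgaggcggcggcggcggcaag
Fpr1 (chr1:67422521-67422770, minus strand): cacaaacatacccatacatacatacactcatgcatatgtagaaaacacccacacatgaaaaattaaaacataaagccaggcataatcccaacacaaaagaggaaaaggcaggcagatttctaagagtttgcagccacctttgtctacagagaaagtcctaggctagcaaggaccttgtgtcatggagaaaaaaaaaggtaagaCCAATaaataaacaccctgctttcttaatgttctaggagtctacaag
Bicra (chr1:85814583-85814832, minus strand): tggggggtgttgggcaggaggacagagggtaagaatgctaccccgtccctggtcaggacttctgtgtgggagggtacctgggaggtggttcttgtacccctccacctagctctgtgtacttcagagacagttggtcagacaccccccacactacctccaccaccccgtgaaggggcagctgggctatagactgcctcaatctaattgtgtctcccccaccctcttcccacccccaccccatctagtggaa
The Gna13 window held 4 GC boxes and was 83.2% G and C. The Fpr1 window held 1 CAAT box and was 38.8% G and C, and the Bicra window held none of the 3 motifs at 58.8% G and C. Among 33469 windows of the same length, 12.9% held the TATA box letters, 30.5% the GC box and 34% the CAAT box. A match is a description of the letters and shows no bound factor. The 3 genes were chosen after their values were seen, from 6 genes with a symbol whose model reached upstream of an assembled full reference chain and had an intron in both assemblies. Of the 6, 5 were in the promoter table.

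Gna13 encodes the alpha subunit of a heterotrimeric G protein, which relays signals from receptors at the cell surface. Its overlap model (XLOC_010418, chromosome 10, 92998314 to 93001000, plus strand) had a first exon of 120 bp and a second exon of 309 bp, separated by an intron of 2258 bp. The second exon began at 93000692, the same base as the first exon of the assembled reference chain, and ran past the end of that first exon at 93000918. The model therefore placed an exon upstream of the assembled reference chain, with its far end 2378 bases from the start of that chain. It was found in both assemblies.

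Fpr1 encodes a formyl peptide receptor of neutrophils and other phagocytes. Its reference transcript was assembled as 1 exon of 1208 bp. The overlap model (XLOC_001152, chromosome 1, 54929289 to 54937454, minus strand) covered nearly all of that exon with one of 1210 bp and added an exon of 40 bp across an intron of 6916 bp, so that it began 6967 bases upstream. Both assemblies contained it.

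Bicra, named Gltscr1_predicted in the files, encodes a subunit of a chromatin remodelling complex. Its overlap model had 5 exons and 1485 bp and was in the second assembly alone. The last of its exons (1249 bp) lay within the first exon (1991 bp) of the assembled reference chain, and the other 4 exons lay upstream of it. In the first assembly the introns between these upstream exons appeared in a separate model of 5 exons and 275 bp, classed as lying between genes, which had a further exon upstream and did not reach the known first exon. The upstream reach was 9185 bases from the reference chain.

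Smad4, the shared partner of the receptor-activated Smads in BMP and TGF-beta signalling, had a model of 2 exons (XLOC_015280, chromosome 18, minus strand) with exons of 75 bp and 160 bp. The second exon lay within the first exon of the assembled reference chain, and the first lay 13423 bases upstream of that chain at its far end. The same intron of 13542 bp occurred in the second assembly, in a model of 12 exons that went on through the rest of the gene, whereas the short model was in the first assembly alone. Lmo2, a LIM-domain cofactor needed for blood cell formation, had exons of 120 bp and 482 bp. The second began inside the first exon of the assembled reference chain and ran past the end of that exon. Its intron (127 bp) was again shared with a 4-exon model of the other assembly, which joined it to the known second and last exons. In both genes this intron ended inside the first exon of the reference chain. It was in both assemblies, and the overlap model was in only 1.

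**Figure D1:**
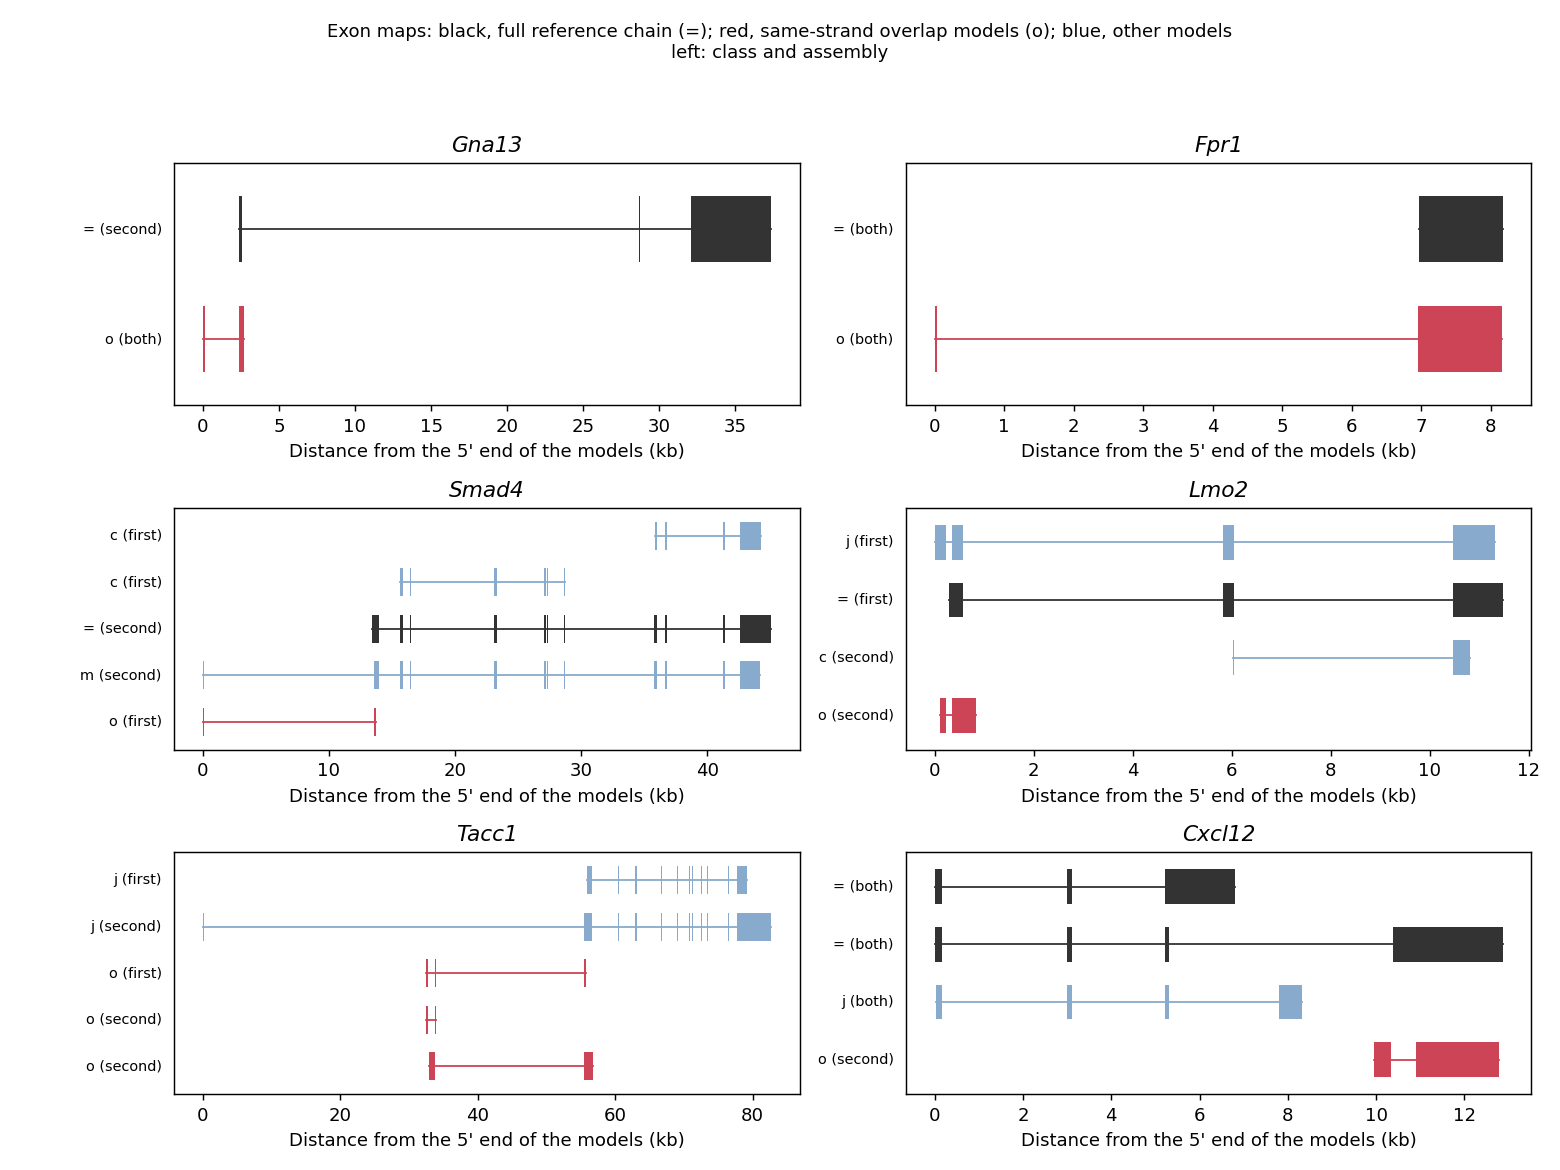
Exon maps of 6 genes, with distance from the 5' end of the gene's models in kb on the x axis and 1 row per model, named by class code and assembly. Boxes are exons and lines introns, and the red overlap models lie at the 5' side of Gna13, Fpr1, Smad4 and Lmo2, over the last exon of Cxcl12 and in the first intron and second exon of the longest Tacc1 model.

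Most models were short and spliced. Of the 465, 311 (66.9%) had 2 exons, 74 had 3 and 42 (9.03%) had a single exon. There were 22 with 4 exons, 10 with 5 and 6 with at least 6. The summed exon length had a median of 362 bp, with quartiles of 259 bp and 590 bp and a range of 200 bp to 6274 bp. Over all transcripts of the annotation the median was 538 bp and 3 exons. Among the most like classes, models with a new junction had a median of 744 bp and 5 exons, and single-exon models that reach into an intron (class e) had 373.5 bp. These are descriptions without a test, since models are not replicates of a condition.

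The models with the most exons came from genes without a symbol. The model of rCG_42262 (XLOC_013914, chromosome 16, 6913426 to 6979272, plus strand) had 17 exons and 2152 bp, and each of its exons touched another model of the locus. Its reference transcript had 3 exons, and only its first exon was reached, with 81 bases shared. A model of rCG_39641 (XLOC_000650, chromosome 1) and one of rCG_64413 (XLOC_004558, chromosome 4) had 7 exons each. Those of rCG_45832 (XLOC_003229, chromosome 3) and rCG_61551 (XLOC_006561, chromosome 6) had 6. A model of rCG_58330 (XLOC_008435, chromosome 8; 1060 bp) also had 6 and fell outside the 5 only because ties were broken by chromosome and start.

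The longest models had 2 or 3 exons. The longest of all (rCG_65918, XLOC_016417, chromosome X, 69842943 to 69849461, plus strand) held 6274 bp in 2 exons, followed by rCG_48502 (XLOC_000864, chromosome 1) with 4055 bp and rCG_28706 (XLOC_003075, chromosome 2) with 3736 bp. All 3 were found in both assemblies. The next longest, of rCG_29614 (3516 bp) and rCG_47510 (3294 bp), were in the first assembly alone.

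**Figure D2:**
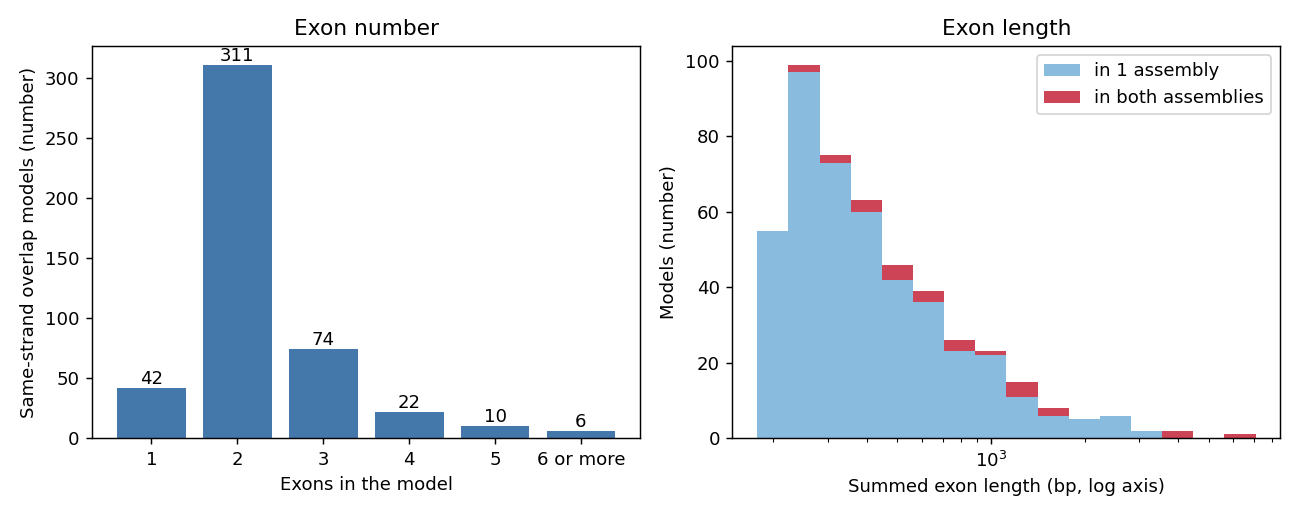
Left, number of overlap models by exon number; right, number of models by summed exon length in bp on a log axis, stacked by models in 1 assembly and in both. The peak is at 2 exons (311 models), and no model is shorter than 200 bp.

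Where a model lies on its gene was read from the other transcripts of the same gene. These existed for 377 models, and the other 88 (18.9%) were the only assembled transcript of their gene. Of the 377, 152 (40.3%) began upstream of the other transcripts, 90 (23.9%) ended downstream of them, 4 passed both ends and 131 (34.7%) lay within their span. Among models past the 5' end alone, the reach had a median of 4355 bp (1 to 185682 bp). Past the 3' end alone it had a median of 1964.5 bp (12 to 76462 bp). Only transcripts that were assembled are in the files, so the reach is a distance from assembled transcripts and not from an annotated gene end. Part of it can be reference sequence without an assembled model. In 135 of the 377 (35.8%) no exon base was shared with the other transcripts of the gene. Code o places each of these on a reference exon, which the other assembled transcripts did not cover at that place. The medians of reach include such models, and past the 3' end alone the median percentage of exon bases shared was 0%.

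Measured against the assembled full chain of the same reference transcript, few models were left inside. That chain existed for 89 models. Of these, 56 (62.9%) began upstream of it, 24 (27%) ended downstream, 6 passed both ends and 3 (3.37%) lay within. With the span taken from all other transcripts, 23 of the same 89 (25.8%) lay within, 48 began upstream and 15 ended downstream. The share within therefore moved from 25.8% to 3.37% in the same models when the span was narrowed to the chain, and the share of 34.7% given above is over other models as well. Both settings were added after the data had been seen. The share past the 5' end was the larger one in each.

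For 31 of the 89 models the reference transcript had 2 or more exons. The overlap model touched the first exon alone in 20 (64.5%) and the last exon alone in 11 (35.5%), and it touched internal exons in 0 of 31. The bases shared with that exon had a median of 143 bp (25 to 2439 bp). Models at the first exon included Gna13, Smad4, Lmo2, Bicra, Lxn (latexin, a carboxypeptidase inhibitor) and Cyp4f18, a cytochrome P450 that hydroxylates leukotriene B4. Lxn reached 32 bases upstream with a single exon, and Cyp4f18 reached 5142 bases upstream with 3 exons. Models at the last exon included Cxcl12 and Larp1, an RNA-binding protein of ribosomal protein transcripts. For Cxcl12, the chemokine that holds blood stem cells in the marrow, the model had 2 exons of 375 bp and 1899 bp and lay within the span. The second of them lay inside the last exon (2502 bp) of the 4-exon reference chain. The symbols in this paragraph were named after their values were seen.

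In the other 58 of the 89 (65.2%) the reference transcript was a single exon, whereas 842 of 5963 full reference chains in the annotation (14.1%) had a single exon. All 58 overlap models were spliced. They shared a median of 260.5 bp with the reference exon (64 to 3085 bp). Of the 58, 36 began upstream, 15 ended downstream, 6 passed both ends and 1 lay within. Many of the 36 lay in 1 stretch of chromosome 6, from 130208818 to 134090094, on the minus strand. Their reference exons had 232 bp to 307 bp, and most had an intron of 79 bp to 110 bp. Models of this stretch are also counted in the 62.9% that began upstream of the chain. The share of 65.2% covers only models whose full reference chain was assembled, and it does not describe the class. Over all 465 models, the reference had a single exon in 58 (12.5%) and more than 1 exon in 286 (61.5%). For the other 121 (26%) this was not known. A spliced model cannot match the junctions of an unspliced reference, so the shares are descriptions only.

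Among models of 2 exons with other transcripts in the gene (243), the exon that overlapped was more often the second. In 70 the downstream exon alone touched exons of the other transcripts and in 22 the upstream exon alone. Both exons did so in 63, and neither in 88. Of the 70, 53 reached past the 5' end, and of the 22, 15 reached past the 3' end. The 70 include most models of the stretch of chromosome 6 named above.

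The farthest reach upstream was that of rCG_61551 (185682 bp), followed by Tspan9, a tetraspanin membrane protein (174285 bp). Next came rCG_21098 (XLOC_007143, chromosome 6; 168563 bp), rCG_50325 (XLOC_005595, chromosome 5; 165910 bp) and rCG_21379 (XLOC_012312, chromosome 12; 131196 bp). In the models of Tspan9 and rCG_21379, 0 exon bases were shared with other transcripts. Downstream, Kif16b, a kinesin motor of endosomes, reached 76462 bp and rCG_32018 (XLOC_005502, chromosome 5) reached 55153 bp. They were followed by rCG_49725 (XLOC_016368, chromosome X; 35474 bp), rCG_58878 (XLOC_008303, chromosome 8; 28771 bp) and MGC94223 (XLOC_012026, chromosome 12; 18147 bp). The models of Kif16b, rCG_49725, rCG_58878 and MGC94223 likewise shared 0 exon bases with other transcripts. For the models that shared 0 bases, the reach spans, at least in part, reference sequence that was not assembled. Each of the 10 models named in this paragraph was in 1 assembly only.

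**Figure D3:**
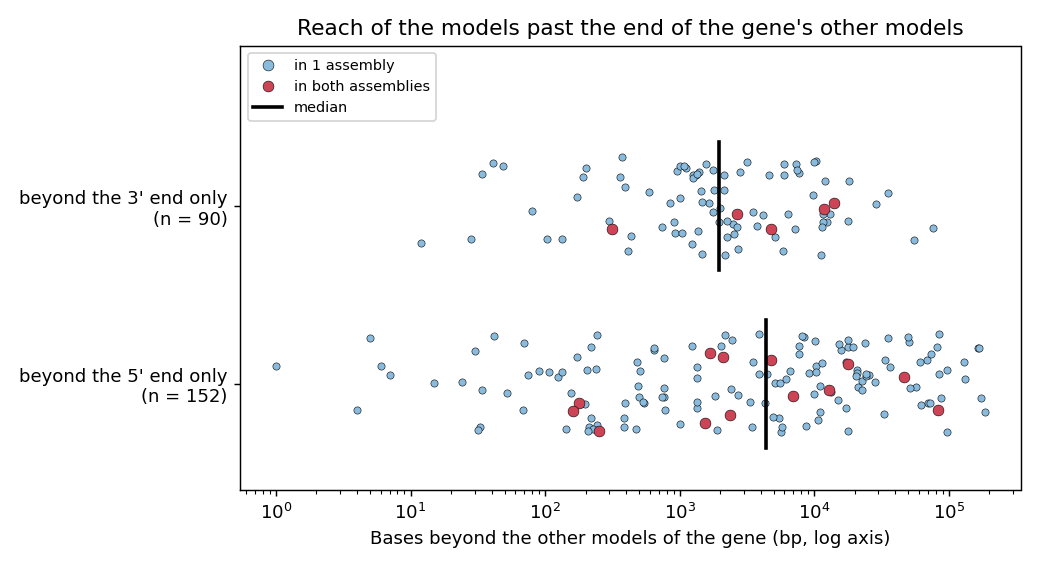
Bases by which each model passes the other models of its gene, on a log axis in bp, for the 152 models past the 5' end alone and the 90 past the 3' end alone. Each point is a model, red where it is in both assemblies, and the black bars are the medians of 4355 bp and 1964.5 bp.

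The annotation merges 2 assemblies. Neither carries a group name, so they are called first and second by the order of the transcript numbers, and neither can be assigned to OVX or SHAM. The files count for each model the assemblies that held it, and models held by both numbered 27 of 465 (5.81%), against 4896 of 43391 transcripts (11.3%). Of those 4896, 2996 had a full reference chain, a class with 50.2% in both. The share was 5.76% for models with a new junction, 4.85% for contained fragments and 7.18% for models between genes. A low share is therefore not particular to the overlap models. The first assembly alone held 216 and the second 222. The models in both were longer, with a median of 644 bp against 349 bp for those in 1 assembly, and 0 of 27 had a single exon. Of the 21 with other transcripts in their gene, 13 began upstream, 5 ended downstream, 2 passed both ends and 1 lay within.

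The longest models in both assemblies, after the 3 longest of all, were those of rCG_23334 (XLOC_013110, chromosome 14; 1595 bp), rCG_21556 (XLOC_012224, chromosome 12; 1528 bp) and Fpr1 (1250 bp). They were followed by rCG_45738 (XLOC_003902, chromosome 3; 1225 bp), rCG_56519 (XLOC_005161, chromosome 4; 1205 bp) and rCG_35919 (XLOC_013061, chromosome 14; 1173 bp). Adcy9, an adenylyl cyclase that makes cyclic AMP, came next with 1083 bp (XLOC_009836, chromosome 10, 10096033 to 10097299, plus strand). Its 2 exons lay 83319 bases upstream of the other 3 transcripts and shared 0 bases with them. Of the 27 genes, 9 were matched to a symbol, 5 by the current name and 4 by an older one. They include Gna13 and Plxnb2, a plexin receptor of semaphorins, whose model reached 313 bases past the 3' end of the other transcripts. The end passed in Plxnb2 was that of another overlap model, found in the second assembly alone.

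Introns were also compared apart from whole models. A spliced model in both assemblies has its introns in both, so for spliced models the intron share cannot be the lower one. Of 423 spliced models, 121 (28.6%) had at least 1 intron that was present, base for base, in both assemblies. Of the 396 spliced models found in 1 assembly only, 94 (23.7%) had such an intron. The partner in the other assembly was a model with a new junction for 58 of them, another overlap model for 15 and a model between genes for 10. By class, an intron in both assemblies was found in 84.1% of spliced models with a full reference chain and 76% of those with a new junction, both of which contain known junctions. It was found in 33.5% of spliced models between genes, 12% of antisense models and 3.43% of models inside introns, which like the overlap models share none. No test of these differences was made.

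**Figure D4:**
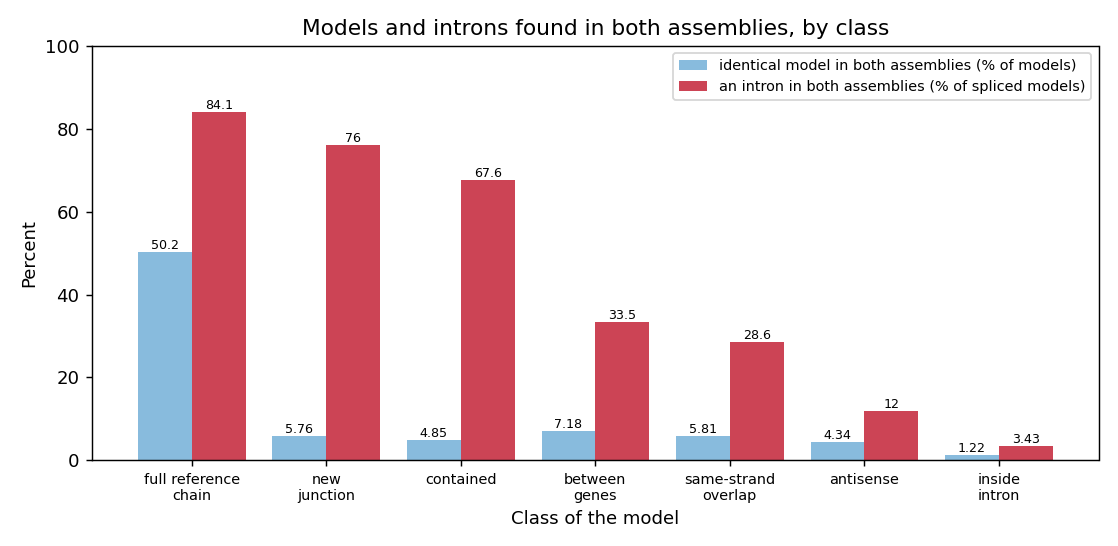
Percent of all models counted in both assemblies (blue) and percent of spliced models with an intron in both (red), for 7 classes. The same-strand overlap class stands at 5.81% and 28.6%, next to models between genes at 7.18% and 33.5%.

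Tacc1, which encodes a coiled-coil protein of microtubules, was the gene with 3 overlap models (XLOC_014077, chromosome 16, plus strand). In the first assembly 1 model had 3 exons and 770 bp. The second assembly had instead a model of 540 bp with the first of its introns (915 bp) and a model of 2170 bp with the second (21644 bp). The introns were thus in both assemblies, in models that differed. In all, 29 genes had 2 overlap models and 404 had 1. Of the 30 genes with more than 1, 19 had different models in the first and the second assembly.

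On multi-exon references, the assembly that held the overlap model was mostly not the one that held the full reference chain. Over all 89 models with such a chain, this was so for 28 (31.5%). Among the 31 models on a multi-exon reference, the overlap model and the chain were in different assemblies in 28 (90.3%). Smad4, Lmo2 and Bicra were 3 of them. The exceptions were Cxcl12, Gna13 and Larp1. On single-exon references the model and the chain were in different assemblies in 0 of 58. Of these 58 chains 39 were in both assemblies, against 1 of the 31 multi-exon chains. A chain in both assemblies cannot count as different, which limits the contrast. The contrast was noticed in the data and not tested.

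Sharing of splice sites was measured where another transcript of the gene had introns of the reference (class = or c). This was so for 225 of the 423 spliced models, and 0 of 225 shared a donor or an acceptor with them, as the definition of the class implies. With all other transcripts of the gene, 94 of 344 shared an intron. A start cluster was shared with another transcript by 54 of 377 models (14.3%). It was shared by 17 of 152 models past the 5' end.

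Gene names were matched to a RefSeq symbol for 161 of the 465 models, 104 through a current symbol and 57 through an older one, while 287 carried names that begin with rCG. The 9 lists of bone, cartilage, muscle, marrow, fat, matrix and signalling genes held 103 genes, of which 71 were assembled and 0 had an overlap model. Of all 7565 symbols assembled, 151 had one. The lists were osteoblast and osteocyte (11 of 12 assembled), osteoclast (7 of 12), chondrocyte (4 of 6), skeletal muscle (5 of 12), marrow (6 of 12), adipocyte (3 of 6), bone matrix (17 of 18), bone signalling (15 of 20) and the genes that the study names in its network (4 of 6).

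The following 5 genes outside these lists were chosen after their values were seen and stand for no group. Acvr1, a type I receptor for BMPs, had a model of 221 bp in 2 exons that began 50669 bases upstream of the other assembled transcripts. It shared no exon base with them. Chrdl1, a secreted inhibitor of BMPs, had one of 575 bp that lay wholly downstream of the other assembled transcripts and ended 5866 bases past them. Sema4d, a semaphorin through which osteoclasts restrain osteoblasts, had one of 670 bp, also wholly downstream, that ended 1253 bases past the other assembled transcripts. Of its exon bases, 366 lay over exons of the opposite strand. These distances are from assembled transcripts and not from an annotated gene end. Csgalnact1, an enzyme of chondroitin sulfate synthesis, had one of 478 bp that began 87985 bases upstream. Gpc4, a glypican of the cell surface, had a single exon of 481 bp that began 71916 bases upstream. All 5 models were in 1 assembly, and 0 of the 4 spliced ones had an intron in the other.

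The next 4 genes, of blood and immune cells, were also chosen after their values were seen and stand for no group. Hemgn, a nuclear protein of blood cell precursors, had a single exon of 645 bp within the span, 294 bases of it shared. Jak2, the kinase of the erythropoietin receptor, had 2 exons of 209 bp and 86 bp across 24320 bp that began 204 bases upstream. Ms4a1, which encodes the B cell antigen CD20, and P2rx7, an ATP-gated channel of macrophages, each had the overlap model as its only assembled transcript, of 236 bp and 221 bp.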

How the data were processed

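RNA-seq libraries of femur RNA were assembled by the authors. The submitters' processing notes list HISAT2, StringTie, featureCounts and FastQC, without versions, and the rn4 build. The files name no build, so positions are given 1-based as deposited and whether they lie on rn4 could not be settled. Class codes and locus names are in the style of gffcompare, which is not named. The deposited files are that annotation and a list of 1507 new genes, none of which had a class o model, and the planned comparison of OVX with SHAM was not made because neither holds expression values. Sequences were assigned to chromosomes by gene symbols of GRCr8 (5293 of 5341 on 1 main chromosome each). The first and second assembly were read from the transcript numbering, which ran through the plus and minus strands 2 times on every sequence. Exons, spans and introns were compared by position with Python 3.11.15, checked on 400 simulated models, all of which were recovered.

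The members and gene lists were chosen with earlier results of these data known. Models were named by rule: the 5 with the most exons, the greatest length and the farthest reach past either end, the 10 longest in both assemblies, genes of the lists, and genes with 3 or more models. Other names were chosen after their values were seen. Alternatives changed the models included and the definition of the span. No test was run, because the files give no values per sample.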

Additional observations from a re-analysis of the deposited data

How the results depend on the processing

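The 7 quantities on number, exons, length, position and assemblies were recomputed under the alternatives, which gave 60 values. Of these, 39 stayed inside the 95% Wilson interval of the share or, for counts and medians, within 1.5 times. Fewer models were left by construction with at least 300 bp (288), with presence in both assemblies (27) and with a symbol, a setting chosen after seeing the data (161). With presence in both assemblies the single-exon share was 0%, the median length 644 bp, the share past the 5' end 61.9% and the share within 4.76%. With a symbol the single-exon share was 14.3%. With at least 300 bp the share in both assemblies was 8.33%. With the span taken from full reference chains, which also left 112 of 377 models, the shares were 58.9% past the 5' end, 32.1% past the 3' end and 3.57% within. The same 112 models with the wider span gave 44.6%, 15.2% and 37.5%. With the chain of the same reference transcript, which left 89 models, 62.9% lay past the 5' end and 3.37% within, and the same 89 with the wider span gave 53.9% past the 5' end, 16.9% past the 3' end and 25.8% within. The settings with the chain of the same reference transcript and with the wider span were chosen after seeing the data. Without other overlap models in the span, 29.7% lay within. By midpoint, 58.9% lay toward the 5' end and 41.1% toward the 3' end, and no share within exists. The cause of these shifts was not tested beyond the construction of each setting. The share past the 5' end was above that past the 3' end in every setting run. The requirement of a gene name removed no model and says nothing about stability. As depth is unknown, a model absent from an assembly may have been transcribed.

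No paired analysis was possible because neither file has expression values and no test was made. Leaving out a replicate was impossible with 1 labelled sample in each group, and the alternatives for expression values were not run.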

Other observations

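Intron lengths of the overlap models spread widely. Their 608 introns had a median of 1530 bp, from 21 bp to 446658 bp, against a median of 1102 bp over all 163783 introns counted per transcript. An intron below 70 bp occurred in 21 of 423 spliced models, among them Slc38a1, a glutamine transporter (24 bp), and Mmrn2, a matrix protein of blood vessels (31 bp), and one above 100000 bp in 9. The longest belonged to a model of rCG_62231 with 2 exons and 268 bp. P3h2, an enzyme that hydroxylates collagen prolines, named Leprel1 in the files, had one of 106156 bp. These genes were named after their values were seen.

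Exon bases over exons of the opposite strand were found in 25 of 465 overlap models (5.38%), in 5 of the 42 with a single exon and in 3.48% of all transcripts. The highest symbol-named value was that of Fbxl17, an F-box protein, with 853 of 877 bp. Exons of 14 overlap models touched models that carry another gene name, each of these 14 in 1 assembly. By chromosome, overlap models made up from 0.5% of transcripts (chromosome 11) to 1.77% (chromosome 6, with the stretch of models on single-exon references named above).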
